A study of Mus musculus with 2 samples.

Results

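Chemokine genes were followed across the immune cells of mouse visceral adipose tissue (VAT). The members were all measured genes named Ccl or Cxcl with a number, together with Xcl1, Cx3cl1, Pf4 and Ppbp. They were picked by name alone, but with earlier results of these data known. They came to 35 of the 26981 genes measured in either library. All 35 were listed in the normal water (NW) library and 34 in the antibiotic (ABX) library, which did not list Cxcl17. Both libraries came from wildtype C57BL/6 mice aged 15 weeks, which drank normal water or were given antibiotics, and in the study's methods the mixture put into drinking water held ampicillin, vancomycin, streptomycin and colistin. VAT, labelled eWAT, was digested with enzymes, cells carrying the pan-leukocyte protein CD45 were enriched with magnetic beads, and single cells were captured on a BD Rhapsody cartridge with oligonucleotide-tagged antibodies. Each condition was a single library, the number of mice behind each was not given in the sources used here, and mouse-to-mouse variation could therefore not be measured. No p-values are given. Each interval in brackets is a 95% interval for counting error only, and a difference counts as large when it reached 1.5-fold in a gene whose unique molecular identifiers (UMIs, each one captured mRNA molecule) came to 200 or more in the libraries combined.

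Chemokines are small secreted proteins that bind to matrix and to G-protein-coupled receptors on leukocytes and set the direction in which those cells crawl. The CC and CXC families are named for the spacing of their first cysteines, Xcl1 belongs to the C class and Cx3cl1 to the CX3C class. In adipose tissue, resident macrophages are known as a large source of CC chemokines, and the stroma and vessels as sources of Cxcl12. A chemokine measured as mRNA in a cell is a possible signal sent by that cell, while the cells able to receive it are those with the matching receptor.

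The NW library held 12474 cells with 75214427 UMIs in all and a median of 5092 per cell, and the ABX library 12724 cells with 60770758 UMIs and a median of 3845.5. A total of 196 cell barcodes occurred in both. Cells were clustered by mRNA and antibodies, with every chemokine gene kept out of the clustering, and the clusters were grouped into 18 named classes by marker genes. The numbers of cells are given with the map of levels by class. A further 1284 cells stayed unnamed and entered the sums over all cells but no class. Levels are UMIs of a gene per 1000000 UMIs of all genes (CPM), summed over the cells of a class. Because UMIs count molecules, levels of different genes were compared without a correction for length. Names ending in -like rest on markers, and DC stands for dendritic cell, ILC2 for group 2 innate lymphoid cell, NK for natural killer cell and Treg for regulatory T cell. The ABX library was the shallower, and macrophage genes had UMIs in every class, so levels are set against B-like cells, which should hold little mRNA of myeloid chemokines. Endothelial-like and fibroblast-like cells, which should lack CD45, were present.

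Chemokine mRNA took up 7402 CPM in NW and 5251 CPM in ABX, a mean of 44.6 and 25.1 UMIs per cell. Most of it in NW came from a few genes. Ccl6 supplied 48.3% of all chemokine UMIs, Ccl9 19.0%, Pf4 8.94% and Ccl5 5.79%. Macrophage-like cells held 75.9% of the chemokine UMIs in NW and 69.1% in ABX. Of the 35 members, 27 had 200 UMIs or more with the libraries combined. The other 8 ranged from 1 UMI (Cxcl17) to 179 UMIs (Ccl27a), with Ccl1, Ccl21a, Ccl28, Ccl19, Cxcl5 and Ccl20 between them. Ccl21a and Ccl27a have near-identical copies in the mouse genome, so their counts are uncertain. For 15 of the 27 the class with the highest level was the same in both libraries, and it was macrophage-like for 7 of them and mature DC-like for 3. For the other 12 the highest class differed between the libraries. Only classes with at least 50 cells in a library were ranked, so fibroblast-like cells could be highest in ABX alone, as for Ccl11 and Cxcl14. Some ranks rest on close, low levels, such as Cxcl10 in NW at 15.2 CPM in neutrophil-like and 14.3 CPM in macrophage-like cells. The count is therefore no measure of a change of source.

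**Figure D1:**
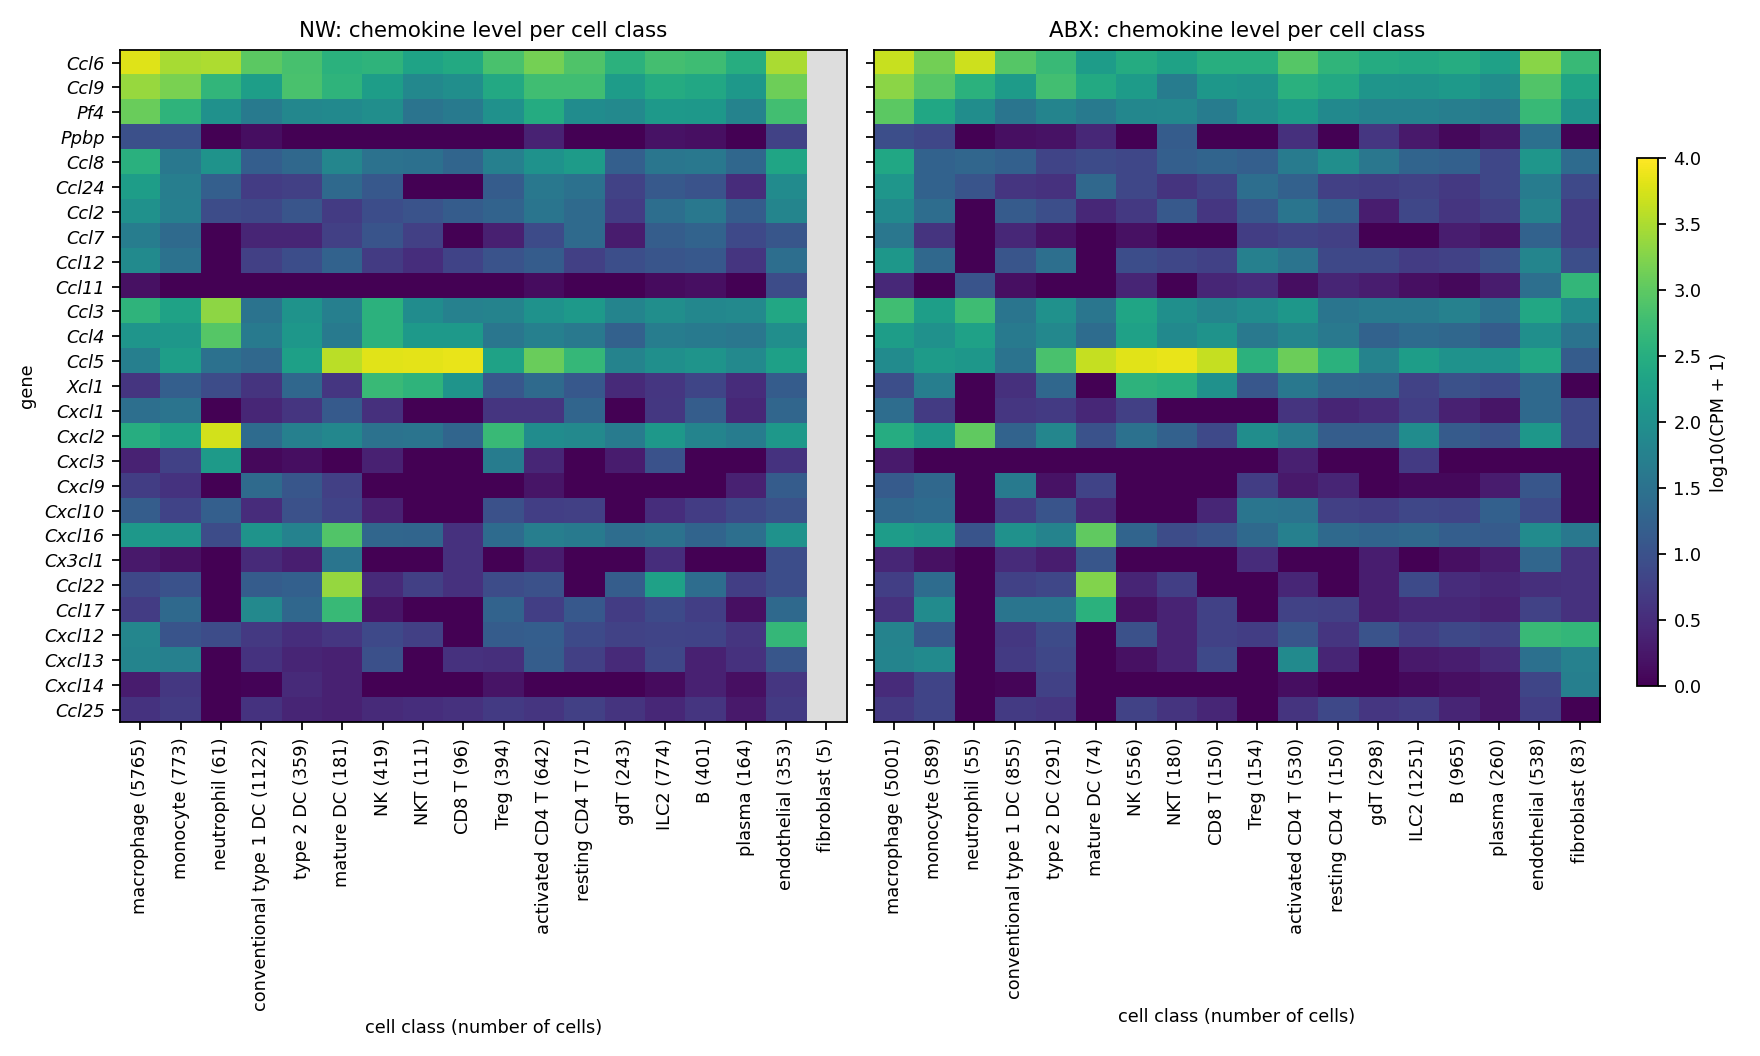
Level in each cell class of the 27 chemokine genes that had 200 or more UMIs in the combined libraries, as log10(CPM + 1), in NW (left) and ABX (right), with the number of cells in brackets. Ccl9 and Pf4 are brightest in macrophage-like cells, as is Ccl6 in NW (in ABX it is brightest in neutrophil-like cells), Ccl5 in NK, NKT and CD8 T-like cells and Ccl22 in mature DC-like cells, and the fibroblast-like column is grey in NW because it held 5 cells.

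Several members lie side by side in the genome. Per the GENCODE annotation of GRCm38, the build of the deposited files, 12 lie on chromosome 11 and 10 on chromosome 5. On chromosome 11 all but Cxcl16 (chr11:70453983-70459984) lie from Ccl2, at chr11:82035571-82037453, to Ccl4, ending at 83664683. On chromosome 5 Ccl24 (chr5:135569937-135573049) lies far from the others, the last of which, Cxcl13, ends at 95961068. Promoters (250 bases before to 50 bases after the transcription start) were matched in RefSeq for GRCm38.p6 for 26 of the 35 genes. An NF-kB type motif, GGG and TTTCC with any 2 bases between them, searched on both strands, occurred in 5 of the 26 genes (Cxcl1, Cxcl2, Cxcl3, Ccl9 and Ccl20), against 1.89% of all genes with a promoter in the table. An interferon response type motif, GAAA repeated after any 2 bases, on both strands, occurred in 3 (Cxcl10, Cxcl14 and Ccl19), against 3.99% of all genes. AP-1 type TGANTCA occurred in 6 genes (8.97% of all genes), PU.1 type GAGGAAGT in Pf4 alone (3.69%), and a direct repeat of AGGTCA after any 1 base, of the kind nuclear receptors of the PPAR group bind, in none (0.0481%). A match is a run of letters and not a measured binding site. The promoters of Cxcl1 (chr5:90890995-90891294, plus strand), Cxcl2 (chr5:90903649-90903948, plus strand), Cxcl3 (chr5:90785851-90786150, plus strand), Ccl9 (chr11:83578587-83578886, minus strand) and Cxcl10 (chr5:92348840-92349139, minus strand) are shown in GRCm38.p6, 5′ to 3′ in the direction of transcription, because these genes differ below in source and in the comparison of NW with ABX. Capitals mark the NF-kB type motif in the first 4 and the interferon response type motif in Cxcl10.
Cxcl1: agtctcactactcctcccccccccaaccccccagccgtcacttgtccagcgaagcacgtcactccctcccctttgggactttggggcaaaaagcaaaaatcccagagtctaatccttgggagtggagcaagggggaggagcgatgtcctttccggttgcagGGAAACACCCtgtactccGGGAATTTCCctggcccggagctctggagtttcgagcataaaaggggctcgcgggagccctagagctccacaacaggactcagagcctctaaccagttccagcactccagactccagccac
Cxcl2: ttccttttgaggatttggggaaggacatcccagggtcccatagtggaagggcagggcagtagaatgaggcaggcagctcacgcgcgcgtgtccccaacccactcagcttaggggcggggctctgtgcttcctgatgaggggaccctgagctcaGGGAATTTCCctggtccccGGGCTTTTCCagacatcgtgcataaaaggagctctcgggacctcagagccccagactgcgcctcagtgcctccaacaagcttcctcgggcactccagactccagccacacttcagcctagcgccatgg
Cxcl3: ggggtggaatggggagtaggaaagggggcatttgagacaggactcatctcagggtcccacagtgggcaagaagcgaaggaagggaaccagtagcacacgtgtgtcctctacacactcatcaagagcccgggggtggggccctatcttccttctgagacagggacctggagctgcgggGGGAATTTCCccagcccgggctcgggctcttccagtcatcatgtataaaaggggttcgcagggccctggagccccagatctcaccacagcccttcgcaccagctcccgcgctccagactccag
Ccl9: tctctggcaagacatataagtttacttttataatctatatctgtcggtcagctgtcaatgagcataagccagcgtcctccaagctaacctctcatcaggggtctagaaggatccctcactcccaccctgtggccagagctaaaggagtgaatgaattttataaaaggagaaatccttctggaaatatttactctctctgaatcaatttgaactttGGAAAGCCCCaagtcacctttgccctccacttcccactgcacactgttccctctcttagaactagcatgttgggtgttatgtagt
Cxcl10: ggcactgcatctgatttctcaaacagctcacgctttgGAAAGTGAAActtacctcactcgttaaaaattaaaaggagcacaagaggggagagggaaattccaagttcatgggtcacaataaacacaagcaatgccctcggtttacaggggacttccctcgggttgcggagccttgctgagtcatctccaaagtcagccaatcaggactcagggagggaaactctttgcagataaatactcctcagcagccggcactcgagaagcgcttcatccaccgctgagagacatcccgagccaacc

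Ccl6 and Ccl9, CC chemokines of mouse myeloid cells that signal through Ccr1, were the most abundant members. In macrophage-like cells Ccl6 stood at 6286 CPM (6259 to 6312) in NW and 4655 CPM (4627 to 4683) in ABX, with at least 1 UMI in 97.0% and 91.5% of the cells. The same cells held 83.1% and 79.9% of all its UMIs. Neutrophil-like cells had 3267 and 4925 CPM and monocyte-like cells 2993 and 1404 CPM. B-like cells showed 576 and 303 CPM, with a UMI in 55.4% and 35.4% of cells, or 21.2% and 13.2% after thinning each cell to 1000 UMIs, so a low Ccl6 level in any lymphoid class was not read as expression. The median number of UMIs per cell was 4364 and 3927 in B-like cells and 5649 and 4078 in macrophage-like cells. The 9 macrophage markers summed to 2040.2 and 1244 CPM in those B-like cells, the same direction as Ccl6. Ccl9 was at 2412 CPM in NW and 1982 CPM in ABX in macrophage-like cells and 1551 and 914 CPM in monocyte-like cells, against 247 and 141 CPM in B-like cells.

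Pf4, platelet factor 4, is best known from megakaryocytes and platelets, but most of it here was in macrophage-like cells. It reached 1209.6 CPM (1198 to 1221) in NW and 994 CPM (981 to 1007) in ABX there, with a UMI in 86.1% and 77.5% of cells, against 21.7% and 11.5% of B-like cells. The 5 platelet markers (Itga2b, Gp9, Gp1bb, Gp5 and Treml1) summed to 1.43 and 2.61 CPM in these cells. Ppbp, the other platelet chemokine, was far scarcer, at 8.50 CPM and 8.15 CPM in macrophage-like cells. In endothelial-like cells of ABX, 57 of its 83 UMIs came from 1 cell, which carried 8 of 9 macrophage markers and 0 of 7 endothelial markers.

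The monocyte- and eosinophil-attracting CC genes were also highest in macrophage-like cells, except Ccl11. Ccl8, Ccl2, Ccl7 and Ccl12 are the mouse monocyte chemoattractant proteins, ligands of Ccr2 and related receptors, and Ccl24 and Ccl11 are eotaxins, ligands of Ccr3. Ccl8 stood at 348 CPM (342 to 354) in NW and 239 CPM (233 to 246) in ABX, and Ccl24 at 169 CPM (165 to 173) and 125 CPM (120.4 to 129.7). Ccl2 had 104 CPM (101 to 107) and 77.7 CPM (74.2 to 81.5), and Ccl7 47.7 CPM (45.5 to 50.1) and 36.9 CPM (34.4 to 39.4). All 4 were lower in ABX by these sums, while Ccl12 was higher, at 80.9 CPM (78.0 to 83.9) in NW and 130.1 CPM (125 to 135) in ABX. Ccl11 differed from Ccl24 in its source. In ABX it was highest in fibroblast-like cells, with 447 CPM and a UMI in 61.4% of 83 cells, and endothelial-like cells had 7.45 CPM in NW and 27.5 CPM in ABX.

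Ccl3, a ligand of Ccr1, and its close relative Ccl4 were shared among myeloid and cytotoxic cells. Neutrophil-like cells had the highest Ccl3 in NW at 2069 CPM (1831 to 2329.9), but it was 565 CPM (427 to 734) in ABX. Macrophage-like cells had 394 CPM (387 to 400.3) and 588 CPM (578 to 598) and, being many, held 75.5% and 79.1% of the UMIs. NK-like cells stood at 377 CPM (347 to 409) and 221 CPM (200.4 to 243). Ccl4 was also highest in neutrophil-like cells in NW, at 894 CPM (740.4 to 1071), with 61 of its 118 UMIs in 1 cell, and was at 192 CPM (115 to 299) in ABX. Ccl4 in NK-like cells was at 377 CPM (346 to 409) in NW and 193 CPM (174 to 214) in ABX, and in macrophage-like cells at 122 and 171 CPM. In B-like cells Ccl3 had 69.2 and 56.7 CPM and Ccl4 41.9 and 21.0 CPM.

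Ccl5, a product of cytotoxic lymphocytes, came mainly from lymphocytes. It was at 7299 CPM (7025 to 7581) in NW and 4417 CPM (4251 to 4588) in ABX in CD8 T-like cells. NKT-like cells had 6977 and 7325 CPM, and NK-like cells 6602 and 6673 CPM with a UMI in 96.7% and 96.4% of cells, against 13.0% and 10.1% of B-like cells. Mature DC-like cells came next at 3868 and 4382 CPM, and activated CD4 T-like cells had 1204 and 1280.2 CPM. Macrophage-like cells, at 51.4 and 84.2 CPM, lay below the B-like level of 117 and 108 CPM in both libraries. Xcl1, the ligand of Xcr1 on type 1 DCs, was at 508 CPM (473 to 546) in NW and 378 CPM (351 to 406) in ABX in NK-like cells and at 392 and 335 CPM in NKT-like cells. A UMI of Xcl1 was found in 210 of 419 and 278 of 556 NK-like cells, and B-like cells had 5.92 and 8.93 CPM.

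The neutrophil-attracting CXC genes Cxcl1, Cxcl2 and Cxcl3, ligands of Cxcr2 whose promoters are printed above, were not equally distributed. Cxcl2 was highest in neutrophil-like cells, at 5344 CPM (4957 to 5753) in NW and 1049.5 CPM (858 to 1272) in ABX, and a UMI was found in 63.9% of 61 and 23.6% of 55 cells. Treg-like cells had 504 CPM (470.0 to 540.3) in NW and 90.5 CPM (64.9 to 123) in ABX, with a UMI in 32.2% and 8.44% of cells, against 51 of 401 and 54 of 965 B-like cells. Macrophage-like cells stood at 313 and 298 CPM, and B-like cells had 62.4 and 13.2 CPM. Cxcl3 had 223 UMIs in NW and 42 in ABX. In NW it was at 152 CPM (92.6 to 234) in neutrophil-like and 47.6 CPM (37.5 to 59.6) in Treg-like cells, and no UMI was found in either class in ABX, where a count of 0 allows up to 3 UMIs, or 30.3 and 6.62 CPM. Cxcl1 was scarcer, with monocyte-like cells at 33.2 and 4.04 CPM, and macrophage-like cells, at 27.6 and 26.3 CPM, held 72.7% and 78.6% of its UMIs. Cxcl5 totalled 3 UMIs.

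The T cell-attracting pair Ccl22 and Ccl17, ligands of Ccr4, had their highest levels in mature DC-like cells. Ccl22 stood at 2354 CPM (2277 to 2433) in NW and 1735 CPM (1627 to 1848) in ABX, with a UMI in 86.7% of 181 and 81.1% of 74 cells, against 8 of 401 and 9 of 965 B-like cells. Ccl17 stood at 488 CPM (453 to 524) and 355 CPM (307 to 409), and conventional type 1 DC-like cells had 74.8 and 35.3 CPM of it. Mature DC-like cells held 73.7% and 77.4% of the Ccl22 UMIs, but 37.5% and 22.8% of the Ccl17 UMIs, and in ABX conventional type 1 DC-like cells held the most of any class, 27.1%. The next-highest Ccl22 level in NW, 196 CPM in ILC2-like cells, came from a single cell with 640 of the 670 UMIs. That cell held 19439 UMIs, against a class median of 3984.5, and had UMIs of 8 of 9 macrophage, 5 of 8 ILC2 and 2 of 7 mature DC markers. The membrane-bound chemokine Cxcl16, ligand of Cxcr6, was also highest in mature DC-like cells, at 833 CPM (788 to 881) in NW and 1042 CPM (959 to 1131) in ABX, and macrophage-like cells had 136 and 162 CPM. The other membrane-bound chemokine, Cx3cl1 (fractalkine, the ligand of Cx3cr1), had 35.3 and 10.8 CPM in mature DC-like and 7.91 and 20.3 CPM in endothelial-like cells.

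The interferon-induced genes Cxcl9 and Cxcl10, ligands of Cxcr3, came from few cells. Cxcl9 was highest in conventional type 1 DC-like cells, at 23.3 CPM (20.3 to 26.6) in NW and 42.3 CPM (37.5 to 47.5) in ABX. However, 4 cells held 50% of all Cxcl9 UMIs in NW and 3 cells in ABX, and the single highest conventional type 1 DC-like cell had 88 and 200 UMIs. Cxcl10 was at 14.3 CPM in NW and 20.4 CPM in ABX in macrophage-like cells. In ABX it was higher in Treg-like cells, at 35.3 CPM (20.2 to 57.3) from 16 UMIs, in activated CD4 T-like cells, at 32.0 CPM (25.2 to 40.2), and in monocyte-like cells, at 23.7 CPM (17.4 to 31.5), where NW had 8.77, 4.50 and 5.45 CPM. These ABX UMIs lay in 6, 10 and 8 cells. By contrast, 50% of the Ccl6 UMIs were spread over 1210 cells in NW and 941 in ABX.

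Among homeostatic chemokines, Cxcl12, the Cxcr4 ligand, was highest in endothelial-like cells in NW at 465 CPM (437 to 495), and in ABX stood at 509.7 CPM (484 to 536) there and 451 CPM (404 to 502) in fibroblast-like cells, whose intervals overlap. Macrophage-like cells had 68.4 CPM in NW and 60.0 CPM in ABX and held the most Cxcl12 UMIs of any class in NW, 65.8%. Endothelial-like cells held the most in ABX, 43.6%. Cxcl13, the B cell-attracting ligand of Cxcr5, was in macrophage-like cells at 63.6 and 63.9 CPM, with 14 cells of each library holding 50% of its UMIs and a single NW cell 557 of its 2725. In ABX its level was higher in monocyte-like cells, at 81.2 CPM, and in activated CD4 T-like cells, at 80.3 CPM, where 1 cell held 89 of 161 and 92 of 188 UMIs. Cxcl14 was highest in fibroblast-like cells of ABX, at 52.7 CPM (37.4 to 72.0). Ccl25, the ligand of Ccr9, was low in every class, with its highest level, 6.35 CPM (1.73 to 16.3), from 4 UMIs in resting CD4 T-like cells of ABX. Ccl21a, the lymphatic ligand of Ccr7, had 3 UMIs in NW. In ABX 92 of its 100 UMIs were in endothelial-like cells, in 4 cells, and the highest of these, with 46 UMIs, had UMIs of 4 of 4 lymphatic endothelial markers. Ccl1 had 63 UMIs in 12 ILC2-like cells of NW.

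The first comparison asks which chemokine mRNAs differed between the CD45-enriched cells of NW and ABX mice over all classes. Of the 27 members with enough UMIs, 9 were at least 1.5-fold lower in ABX (against 1.93% of all 12311 genes with enough UMIs), and 3 were at least 1.5-fold higher (against 8.22% of all genes). The median log2 ratio of ABX to NW, which is below 0 where ABX is lower, was -0.10 over the 27 and 0.05 over all genes. Cxcl3 was the lowest, with 2.96 CPM in NW and 0.691 CPM in ABX, and its log2 ratio was -2.10 (-2.61 to -1.62). Ccl22 followed with 63.7 and 20.5 CPM and -1.64 (-1.73 to -1.55), -1.58 without the highest cell of each library, and Ccl17 with 26.0 and 14.2 CPM and -0.87 (-0.98 to -0.75). The macrophage genes Ccl8 (-0.82), Ccl7 (-0.81), Ccl24 (-0.76), Ccl6 (-0.72), Ccl2 (-0.71) and Ccl9 (-0.60) made up the rest of the lower group. Pf4 lay just outside it at -0.58, and Cxcl2 had -0.54. Ccl11 was 10.6-fold higher in ABX, at a log2 ratio of 3.41 (3.01 to 3.84), Cxcl14 had 1.20 (0.78 to 1.62) and Cxcl9 1.00 (0.83 to 1.17), or 0.87 without the highest cell of each library. Xcl1 (0.58), Cxcl10 (0.54) and Ccl5 (0.50) were higher by less than the threshold.

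**Figure D2:**
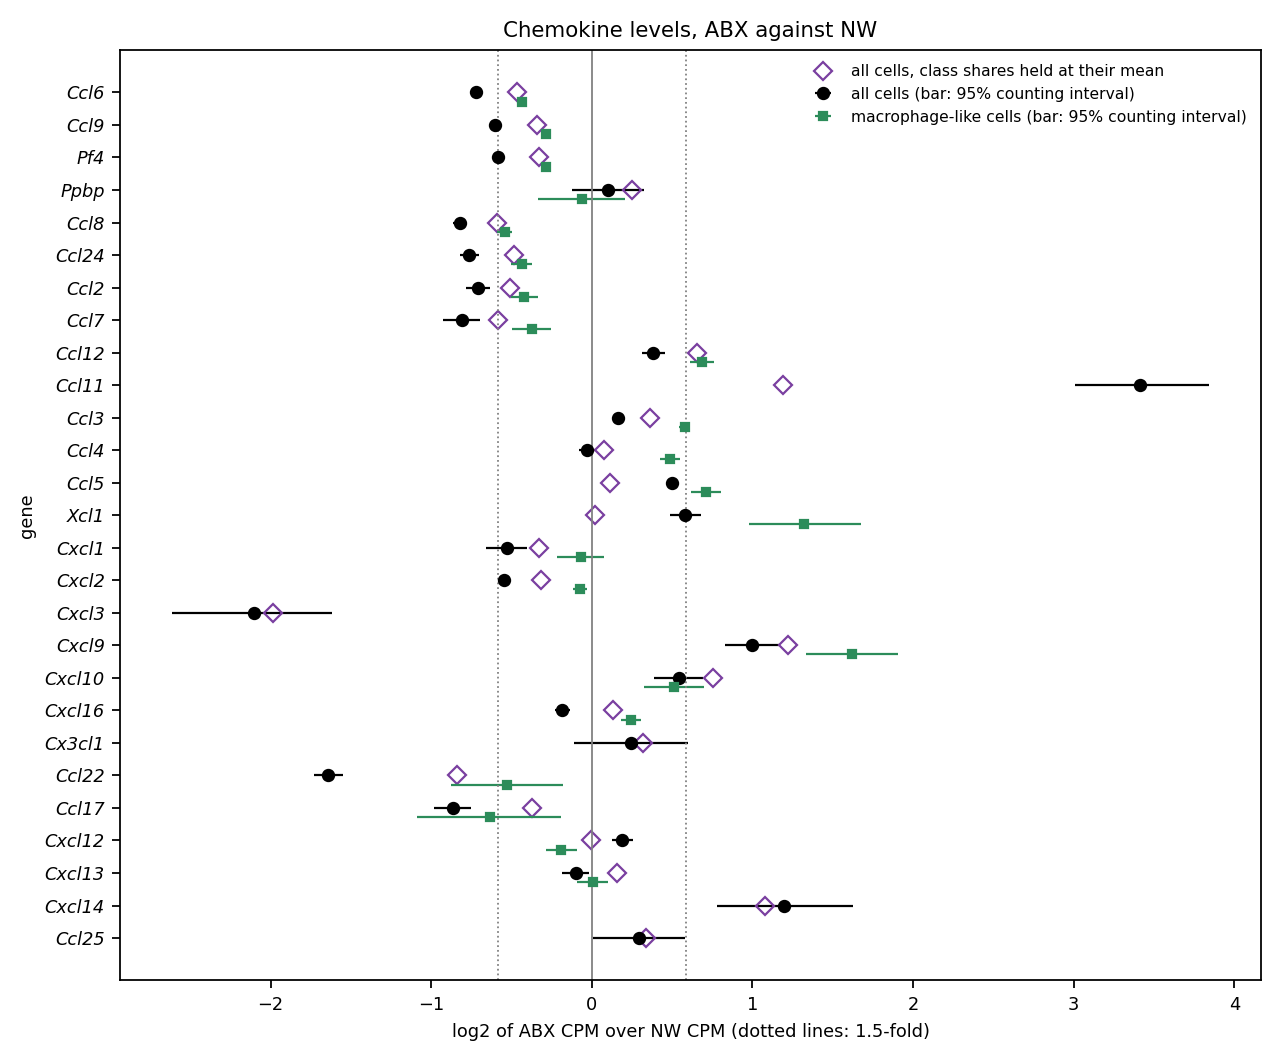
Log2 ratio of ABX to NW of each chemokine gene over all cells and within macrophage-like cells, with 95% counting intervals and dotted lines at 1.5-fold, and diamonds for all cells with class shares held at their mean. Over all cells Cxcl3 and Ccl22 lie farthest to the left and Ccl11 farthest to the right. Within macrophage-like cells Cxcl9, Xcl1, Ccl5 and Ccl12 lie beyond the right line and Ccl17 beyond the left.

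These sums carry the makeup of the libraries as well as the level per cell. Mature DC-like cells were 181 of the NW and 74 of the ABX cells, and fibroblast-like cells 5 and 83. With the share of UMIs from each class held at its mean over the libraries, the log2 ratio of Ccl22 was -0.84, that of Ccl17 -0.38 and that of Ccl11 1.19. The Ccl22 value includes the single ILC2-like cell of NW with 640 UMIs and was not recomputed without it. For Ccl11 the fibroblast-like level in NW came from 5 cells. Ccl6 moved to -0.46, Ccl9 to -0.34, Ccl24 to -0.48 and Ccl2 to -0.51, all now within the threshold, while Ccl8 stayed beyond it at -0.59 and Cxcl3 at -1.99. Ccl7, at -0.58, lay just within it. By these weights 5 members were at least 1.5-fold higher, against 3.4% of all genes, and 3 lower, Ccl22 among them, against 1.23%. Ccl5 had 0.11 and Xcl1 0.02. These weights were chosen after the data were seen.

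Within macrophage-like cells, 5765 in NW and 5001 in ABX, fewer members reached the threshold. Of 22 members with enough UMIs, 4 were higher in ABX (background 3.17% of 10169 genes) and 1 was lower (background 1.13%). Ccl12 stood at 0.68 (0.61 to 0.76) on the log2 scale, from 2877 and 2937 UMIs. Ccl5 had 0.71 (0.62 to 0.80), Xcl1 1.32 (0.98 to 1.67) and Cxcl9 1.62 (1.33 to 1.91), or 2.40 without the highest cell of each library. Lymphocyte markers in the same macrophage-like cells also stood higher in ABX, with NK markers at 27.2 and 37.1 CPM, NKT markers at 33.6 and 59.6 CPM and CD8 T markers at 29.0 and 48.6 CPM, and their part in the Ccl5 and Xcl1 values was not tested. The Cxcl9 UMIs lay in 22 and 25 cells. Ccl17 was the lower member, at 4.19 and 2.70 CPM with -0.63 (-1.09 to -0.19), and its direction turned under other clusterings. Ccl3 lay just under the threshold at 0.58 (0.54 to 0.61), and Ccl4 had 0.48 (0.42 to 0.55). On the other side Ccl8 had -0.54 (-0.59 to -0.50), Ccl24 -0.44 (-0.50 to -0.37), Ccl6 -0.43 (-0.44 to -0.42), Ccl2 -0.42 (-0.50 to -0.34) and Ccl7 -0.37 (-0.49 to -0.25), all below 1.5-fold. Cxcl2 (-0.07), Cxcl1 (-0.07), Ppbp (-0.06) and Cxcl13 (0.01) were close to 0.

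The macrophage-like cells comprised 4 clusters, called by a leading gene: Retnla-high, Lyve1-high, Il1b-high and Ifit-high. They made up 45.2%, 43.2%, 10.5% and 1.04% of these cells in NW and 49.4%, 33.3%, 15.8% and 1.54% in ABX. The Il1b-high cluster had the highest Ccl12, Ccl2, Ccl3, Cxcl1 and Cxcl2 of the 4 in both libraries. Ccl12 stood at 532 and 610.3 CPM there, against 26.0 and 27.9 CPM in the Retnla-high cluster. With cluster shares held at their mean, the log2 ratio of Ccl12 over all macrophage-like cells was 0.17, that of Ccl2 -0.68, of Ccl7 -0.65, of Ccl8 -0.66, of Ccl22 -0.73 and of Cxcl2 -0.34, while Ccl5 stood at 0.68 and Ccl3 at 0.49. By these weights 3 members were at least 1.5-fold higher (background 2.69%) and 5 lower (background 1.01%).

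Inside the Retnla-high cluster 5 of 17 members were lower in ABX (background 0.991%) and 4 higher (background 1.62%). Ccl2 was at 88.2 CPM (83.6 to 93.1) in NW and 42.7 CPM (38.8 to 46.8) in ABX, a log2 ratio of -1.05. Ccl7 was at 32.9 CPM (30.1 to 35.9) and 14.9 CPM (12.6 to 17.4), with a log2 ratio of -1.14. Cxcl1 was at 24.9 CPM (22.5 to 27.5) and 10.3 CPM (8.47 to 12.5), with a log2 ratio of -1.27. Ccl8 (-0.87) and Cxcl2 (-0.78) completed the lower group. In the same cells Ccl3 was higher, at 333 CPM (324 to 343) and 505 CPM (491 to 519), with a log2 ratio of 0.60, as were Ccl5 (0.61), Cxcl10 (0.75) and Cxcl13 (0.75). Immediate early genes in this cluster, a list of 17 which tissue digestion is known to induce, summed to 22386 CPM in NW and 20299.7 CPM in ABX, with 4 of 16 lower, 0 higher and a median log2 ratio of -0.28, and in the Lyve1-high cluster to 21219.7 and 19429 CPM, with 2 of 16 lower. Their part in the lower chemokine values was not tested.

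In the Lyve1-high cluster, of 18 members, 3 were lower in ABX (background 1.06%) and 2 higher (background 1.92%). Ccl7 had -1.12, Cxcl1 -1.11 and Ccl2 -0.77 on the lower side, with Cxcl2 at -0.50, and Ccl5 had 0.93 and Cxcl9 0.97 on the higher side. In the Il1b-high cluster 1 of 17 was lower, Ccl8 at -0.80 (background 0.998%), and 1 higher, Cxcl10 at 0.71 (background 0.998%), whereas Ccl2 had -0.30, Ccl7 -0.07, Cxcl1 0.48 and Cxcl2 0.05. The Ifit-high cluster, led by interferon-stimulated genes, had Cxcl10 at 461 CPM (398 to 531) in NW and 85.6 CPM (58.2 to 122) in ABX, from 190 UMIs in 5 and 31 UMIs in 4 cells. There Ccl8 had -1.66 and Ccl12 -0.68, so that 3 of 7 members were lower in ABX (background 6.38%) and 0 higher (background 1.68%). Whether the ratios differ between clusters was not tested.

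**Figure D3:**
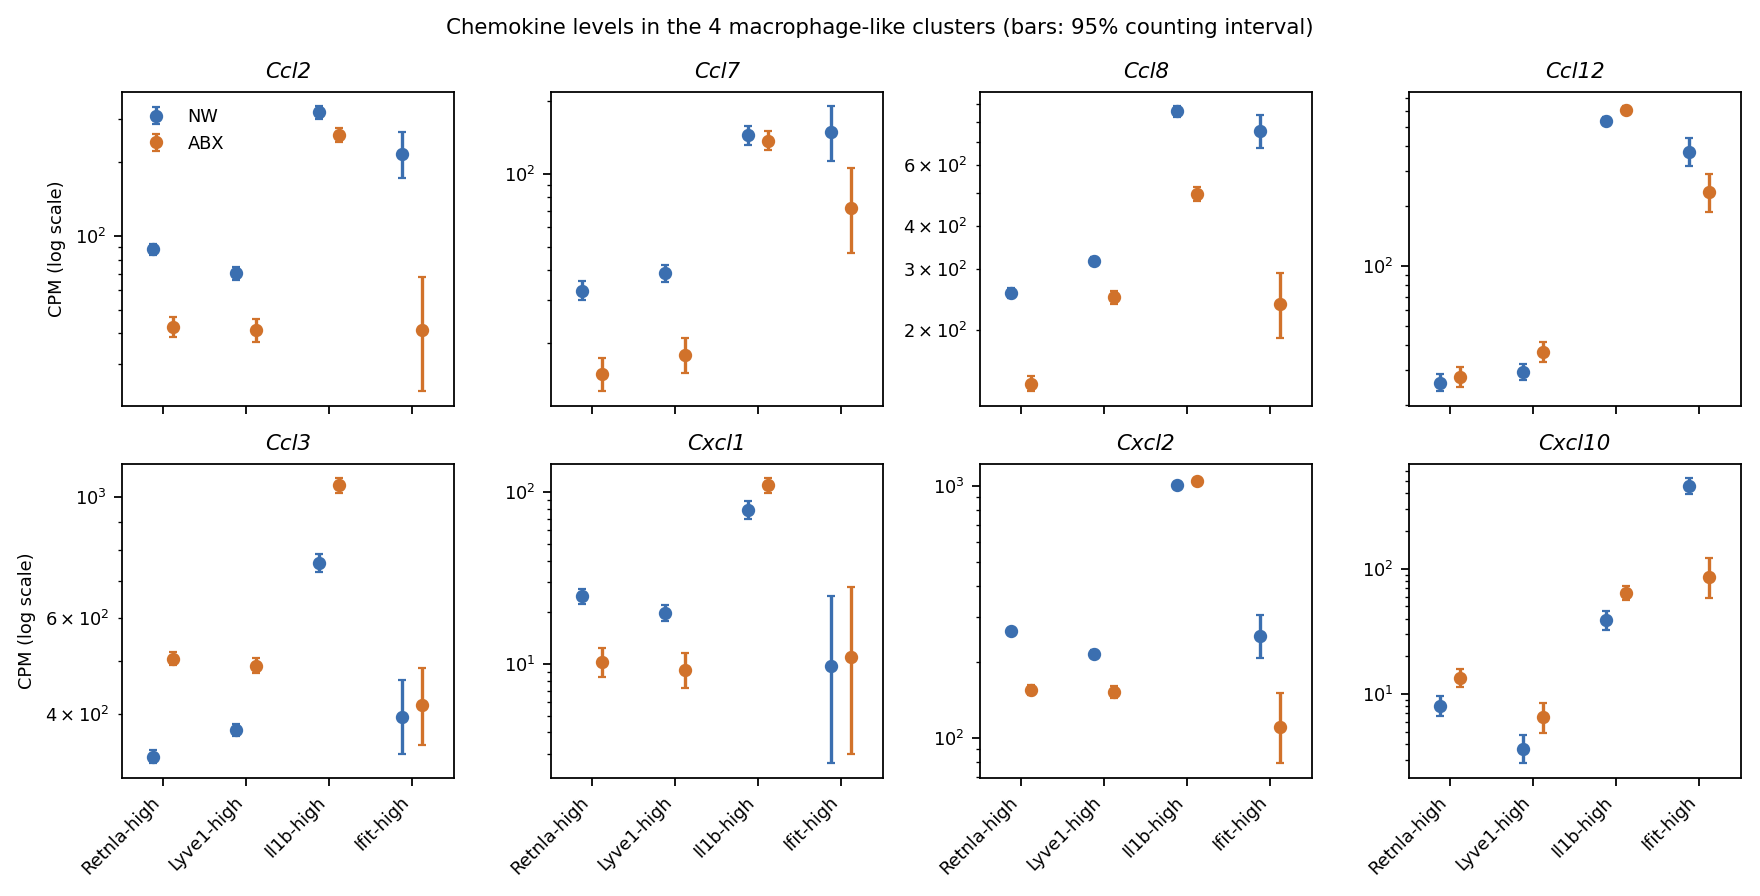
Level (CPM, log axis) of 8 chemokine genes in the 4 macrophage-like clusters in NW (blue) and ABX (orange), with 95% counting intervals. Ccl2, Ccl7, Ccl8, Cxcl1 and Cxcl2 are lower in ABX in the Retnla-high and Lyve1-high clusters, and Ccl2, Ccl12, Ccl3, Cxcl1 and Cxcl2 are highest in the Il1b-high cluster of both libraries.

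Across the other 16 named classes with at least 50 cells in each library, 105 pairs of a member and a class had enough UMIs. Of these, 41 were at least 1.5-fold lower in ABX, against 3.08% of all pairs of a gene and a class, and 9 were higher, against 2.09%. Ccl6 was lower in 9 of 16 classes, Ccl9 in 7 of 13 and Pf4 in 5 of 10. These are genes of macrophage-like cells. In ILC2-like cells Ccl6 had -1.30, Ccl9 -1.29 and Pf4 -1.26, and the summed macrophage markers were at 2271 CPM in NW and 1302 CPM in ABX. There 8 of 10 members were lower (background 3.12%) and 1 higher (background 0.854%). Ccl22 was one of the lower 8 at -4.85, -2.16 without the highest cell of each library. B-like cells had -0.92 for Ccl6, -0.81 for Ccl9 and -1.45 for Pf4, the 3 lower of 5 members (background 5.4%), and 0 were higher (background 1.28%). Plasma cell-like cells had 3 of 5 lower (background 2.68%) and 0 higher (background 3.08%), namely Ccl3 at -1.35, Ccl6 at -0.67 and Pf4 at -0.60. Resting CD4 T-like cells had 2 of 3 lower (background 12.7%) and 0 higher (background 5.42%), namely Ccl6 and Ccl9. The part of macrophage RNA in these values was not tested.

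In the myeloid classes, monocyte-like cells had Ccl6 at 2993 CPM (2938 to 3048) in NW and 1404 CPM (1352 to 1457) in ABX, a log2 ratio of -1.09, with Ccl24 at -1.55, Ccl2 at -0.98, Ccl9 at -0.76 and Pf4 at -0.76. These 5 of 12 members were lower (background 6.32%), and macrophage markers in the class were at 7539.5 and 4722 CPM. The part of macrophage RNA in the 5 values was not tested. Ccl17 was the 1 higher member (background 3.45%), at 1.89, where 124 of its 164 UMIs in ABX came from 1 cell, and 0.70 without the highest cells. Neutrophil-like cells had Cxcl2 5.09-fold lower in ABX, a log2 ratio of -2.35 (-2.66 to -2.05), and Ccl3 3.66-fold lower, at -1.87 (-2.31 to -1.45), while Ccl6 was higher at 0.59 (0.40 to 0.78). With 61 and 55 cells, 174 genes could be compared in this class, of which 12.6% were lower and 6.9% higher. Macrophage markers in neutrophil-like cells were at 2077 CPM in NW and 2916 CPM in ABX, the same direction as Ccl6 there. In ABX macrophage-like cells had 17802 CPM of these markers and 4655 CPM of Ccl6, against 4925 CPM of Ccl6 in neutrophil-like cells. The part of macrophage RNA in the Ccl6 value was not tested. NF-kB target genes (13 genes, among them Il1b, Tnf and Nfkbia) summed to 12659 CPM in NW and 6589.8 CPM in ABX in neutrophil-like cells, and immediate early genes to 34914 and 25744 CPM. Of the NF-kB sum, Il1b alone had 8505 and 4662 CPM, and only 2 of the 13 genes had enough UMIs. The part of either list in the chemokine values was not tested.

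In mature DC-like cells Ccl22 had -0.44 (-0.54 to -0.34), Ccl17 -0.46 (-0.69 to -0.23), Cxcl16 0.32 (0.18 to 0.47) and Ccl5 0.18 (0.11 to 0.25), all within 1.5-fold, and Ccl6 (-1.11) was the 1 lower of 6 members (background 2.72%), with 0 higher (background 1.9%). Type 2 DC-like cells had Ccl5 at 188 CPM (171 to 205) in NW and 719 CPM (681 to 759) in ABX, a log2 ratio of 1.94 (1.79 to 2.09) and 1.98 without the highest cell of each library. A Ccl5 UMI was found in 81 of 359 and 104 of 291 of these cells. In this class CD8 T markers were at 83.1 and 145 CPM and NK markers at 529 and 602 CPM, and their part was not tested. Ccl4 in the same cells was lower at -0.84, so that 1 of 8 members was higher (background 1.62%) and 1 lower (background 1.15%). In conventional type 1 DC-like cells 1 of 11 members was lower (background 0.659%), Ccl17 at -1.08, and 2 were higher (background 0.412%), Ccl5 at 0.62 and Cxcl9 at 0.86. Without the highest cell of each library Cxcl9 turned to -0.23.

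Among lymphoid cells, NK-like cells had 2 of 7 members lower in ABX (background 0.654%) and 0 higher (background 0.505%). Ccl3 had -0.77 (-0.96 to -0.59) and Ccl4 -0.96 (-1.15 to -0.77), whereas Ccl5 had 0.02 (-0.02 to 0.05) and Xcl1 -0.43 (-0.58 to -0.28). CD8 T-like cells had Ccl5 at -0.72 (-0.80 to -0.65), the 1 lower of 2 members (background 1.79%) with 0 higher (background 1.66%). NK markers in CD8 T-like cells summed to 809.8 CPM in NW and 483 CPM in ABX, the same direction as Ccl5, B markers to 226 and 609.8 CPM and CD8 T markers to 3918 and 3919.9 CPM, and their part in the Ccl5 value was not tested. NKT-like cells had it at 0.07 (0.00 to 0.14), and 0 of their 3 members were past 1.5-fold (backgrounds 1.1% lower and 0.552% higher), as were 0 of 2 in γδ T-like cells (backgrounds 1.92% lower and 1.21% higher). Treg-like cells, 394 in NW and 154 in ABX, had Cxcl2 at -2.48 (-2.97 to -2.03) and -3.35 without the highest cells. Ccl5 in Treg-like cells had 0.90 (0.62 to 1.18), or 0.26 with doublets left out. There 3 of 5 members were lower (background 5.74%), the others being Ccl6 at -1.14 and Ccl9 at -1.15, and 1 was higher (background 2.47%). Immediate early genes in Treg-like cells summed to 18395 CPM in NW and 13492 CPM in ABX, with 6 of 13 at least 1.5-fold lower, and macrophage markers to 2219 and 1711 CPM. The part of either list in the Treg-like values was not tested. In activated CD4 T-like cells 5 of 10 members were lower (background 2.51%), Ccl8 at -1.26 with Ccl6, Ccl9, Cxcl2 and Pf4. Macrophage markers in this class summed to 4529 CPM in NW and 3674 CPM in ABX, the same direction as these 5, and their part was not tested. Cxcl13 was the 1 higher member there (background 1.23%) at 2.50, where 92 of 188 UMIs in ABX came from a cell with 8 of 9 macrophage markers.

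Endothelial-like cells had 4 of 13 members lower in ABX (background 3.1%), Ccl24 at -0.86, Ccl8 at -0.85, Ccl6 at -0.68 and Ccl9 at -0.68, and 1 higher (background 7.74%), Ccl12 at 1.25. All 5 are genes of the macrophage-like cells in these libraries, and macrophage markers in the endothelial-like cells summed to 10050.0 CPM in NW and 7184 CPM in ABX. These markers were lower in ABX, as were the 4 lower members, whereas Ccl12 was higher. The part of macrophage RNA in the 5 values was not tested. Cxcl12, the chemokine with its highest level in endothelial-like cells, had 0.13 (0.01 to 0.25). In the same class endothelial markers summed to 1284 and 2472 CPM and pericyte markers to 1018 and 1334 CPM. Fibroblast markers summed to 133 and 507 CPM and lymphatic endothelial markers to 13.0 and 93.4 CPM. The part of these lists in the Cxcl12 value was not tested.

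The cells able to respond were read from 22 chemokine receptor genes. Ccr2, Ccr3, Ccr7, Ccr9, Cxcr2 and Xcr1 were among the markers that name the classes, so their sources are a description of the classes. Ccr2 was highest in ILC2-like cells (1449 CPM in NW and 1300.0 CPM in ABX) and Ccr1 in neutrophil-like cells (1190.1 and 1069.7 CPM). Ccr4, the receptor of Ccl17 and Ccl22, was highest in Treg-like cells at 75.2 and 68.4 CPM. Cxcr6, the receptor of Cxcl16, was highest in γδ T-like cells at 1174 and 893 CPM, followed by ILC2-like cells, and Cxcr5 in B-like cells at 248 and 225 CPM. Ccr8, the receptor of Ccl1, was highest in ILC2-like cells at 187 and 116 CPM, the class that also held most Ccl1 in NW. ILC2-like cells had 18.4 CPM of Ccl1 in NW and 1.76 CPM in ABX. In ABX monocyte-like cells held the most, 56.9% of its UMIs, with 29 UMIs in 1 cell.

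**Figure D4:**
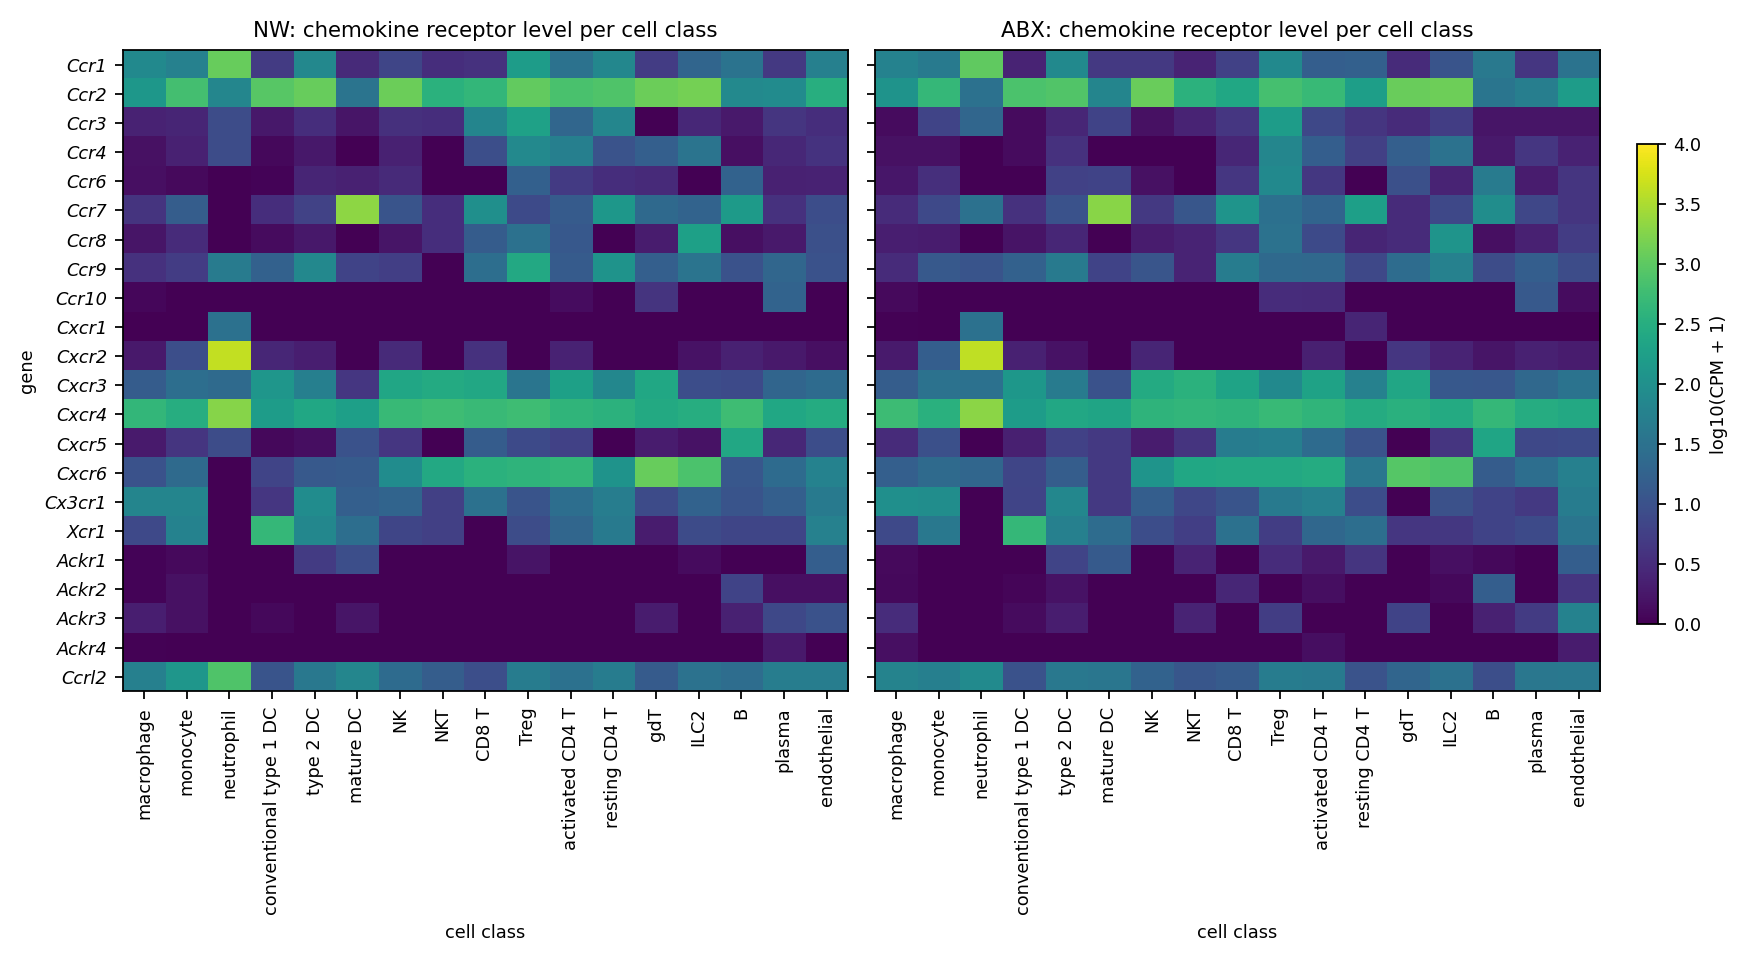
Level of 22 chemokine receptor genes in each cell class with at least 50 cells in both libraries, as log10(CPM + 1), in NW (left) and ABX (right). Cxcr2 and Ccr1 are brightest in neutrophil-like cells, Ccr7 in mature DC-like cells and Cxcr6 in γδ T-like cells of both libraries.

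Over all cells 3 of 17 receptors with enough UMIs were at least 1.5-fold higher in ABX (Ccr6, Cxcr5 and Ackr3) and 3 lower (Ccr3, Ccr7 and Ccr1), with a median log2 ratio of -0.09, against 8.22% and 1.93% of all genes. Cxcr5 was highest in B-like cells (401 in NW and 965 in ABX), Ccr7 in mature DC-like and Ccr3 in Treg-like cells, classes whose cell numbers differed between the libraries. Within macrophage-like cells 2 of 8 receptors were higher and 0 lower, against 3.17% and 1.13% of all genes. Immediate early genes over all cells summed to 18441 CPM in NW and 15721 CPM in ABX, with 3 of 16 lower and 0 higher, and in macrophage-like cells to 23308 and 22408 CPM. NF-kB target genes in macrophage-like cells summed to 1574 and 1721 CPM and the 16 interferon-stimulated genes to 239.7 and 233 CPM, with 0 of 16 past 1.5-fold in either direction.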

How the data were processed

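Single cells of both libraries were counted by the authors with the BD Rhapsody WTA Analysis Pipeline 1.8 against GRCm38 (mm10 per the labels), and the deposited values are UMI counts per gene and cell after the pipeline's error correction, not normalized. The submitters' notes also name R 3.6.0 and Seurat 3.0.1. Cells with at least 500 gene UMIs, at least 200 genes and at most 25% mitochondrial UMIs were kept. Clustering used Seurat 5.3.0 in R 4.3.3 on 2000 variable genes without the chemokine genes, 30 principal components, 8 antibodies and weighted nearest neighbours at resolution 0.6. Clusters were named from marker lists, and the naming rules were adjusted after the clusters were seen. Names were rebuilt here and may differ from the study's. Doublets were kept. Scrublet (scanpy 1.11.5) with its own thresholds marked 344 cells (2.76%) in NW and 77 (0.605%) in ABX. An alternative applied the lower threshold, that of NW, to both libraries. It left out 344 cells in NW and 324 (2.55%) in ABX. Counts were summed per class and library, with Garwood intervals for CPM, exact conditional binomial intervals for ratios (SciPy 1.17.1) and expected shares of cells with a UMI at 1000 UMIs per cell, from which cells under 1000 UMIs (249 in NW, 376 in ABX) were left out. Scripts were tested on simulated counts. Named genes were the members with 200 or more UMIs in the libraries combined, and within a class those past 1.5-fold with the others of their role group. Members and gene lists were chosen with earlier results of these data known, and 1 gene of the receptor list is not reported here. Alternatives covered filters, clustering, normalization, UMI minimum, fold, thinning, doublets, single cells and shared barcodes.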

Additional observations from a re-analysis of the deposited data

Results flagged for a closer look

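Ccl5 stood on opposite sides between classes. Its log2 ratio of ABX to NW was 1.94 in type 2 DC-like cells, 0.90 in Treg-like cells, 0.78 in ILC2-like cells and 0.71 in macrophage-like cells, all higher in ABX, whereas it was -0.72 in CD8 T-like cells, lower in ABX. With doublets left out, the value in Treg-like cells was 0.26, within 1.5-fold. Conventional type 1 DC-like cells had 0.62, or 0.54 without the highest cell of each library. NK markers in CD8 T-like cells summed to 809.8 CPM in NW and 483 CPM in ABX, and their part was not tested. With 1 library per condition the difference between these classes was not tested. Macrophage-like cells had 51.4 and 84.2 CPM and ILC2-like cells 97.5 and 168 CPM, against 117 and 108 CPM in B-like cells.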

How the results depend on the processing

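No paired analysis was possible because each condition is 1 library. The number of members with the same highest class in both libraries, 15, ranged from 13 to 18, and the macrophage-like share of chemokine UMIs from 72.9% to 77.9% in NW and from 67.2% to 70.9% in ABX. Over all cells, where 12 members were past 1.5-fold, 4 were past 2-fold (2 lower), and 7 were past 1.5-fold with cells thinned to 1000 UMIs, 0 of them higher, and 20 members then had enough UMIs. With at least 1 UMI in each library in place of 200, 6 were higher. With class shares at their mean 5 were higher and 3 lower. In macrophage-like cells, where 5 were past 1.5-fold, the total was 8 at a minimum of 50 UMIs (7 higher), 12 at 1 UMI in each library (11 higher), 2 at 2-fold (2 higher, 0 lower), 1 after thinning (0 higher, 17 members tested) and 8 with cluster shares at their mean (5 lower). The mean over cells of UMIs per 10000 gave 2 higher and 3 lower there. The 1 lower member, Ccl17, was lost (0 lower) with chemokine genes allowed among the variable genes, with doublets left out and at a limit of 10% mitochondrial UMIs, and 50 principal components gave 2 lower. Its log2 ratio turned to 1.01 with chemokine genes allowed among the variable genes and to 0.33 with clustering on mRNA alone. In the other classes the 50 pairs became 107 at a minimum of 50 UMIs and 23 at 2-fold, and Cxcl9 in conventional type 1 DC-like cells turned to -0.23 without the highest cell of each library. Some further pairs came within 1.5-fold under an alternative, among them the 2 Ccl5 pairs given above. Ccl6 moved as far as -0.43 for B-like, -0.26 for activated CD4 T-like and 0.54 for neutrophil-like cells. Ccl9 reached -0.43 for activated CD4 T-like cells, and Cxcl2 reached -0.40 for ILC2-like cells. The remaining pairs stayed past 1.5-fold wherever they were recomputed. The cause of these moves was not tested. Of the recomputed values of members past 1.5-fold and of the macrophage-like share, 331 moved by less than the counting interval and 85 by more without turning, and no other of these turned. Among members within 1.5-fold over all cells, Cxcl16 turned from -0.19 to 0.13, Cxcl13 from -0.10 to 0.16, Ccl4 from -0.03 to 0.08 and Cxcl12 from 0.19 to a value just below 0 with class shares at their mean, and Cxcl13 in macrophage-like cells from 0.01 to -0.11 with cluster shares at their mean. Holding class or cluster shares at their mean, and leaving out single cells in the other classes or shared barcodes, were alternatives chosen after seeing the data. Depth limits Cxcl3, Cxcl14 and the members under 200 UMIs, and no value here has a biological replicate.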
